A study of Caenorhabditis elegans with 7 samples.

Results

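The genes unc-11, unc-41, ehs-1, dyn-1 and unc-26 encode proteins that retrieve synaptic vesicles after transmitter release and make them ready for use again. The genes sng-1 and F20D1.1 (now flwr-1), which encode proteins of the vesicle membrane, are grouped with them here. In early larvae of the nematode Caenorhabditis elegans, transcript signal of the 7 genes was higher in sorted DD motor neurons than in all cells. The difference was 2.02- to 3.01-fold over the 9 probe sets that the authors' deposited list names for these genes. Any probe set of these genes that is not on the list was not seen here. These 7 genes are among the 201 that could be named, all from the authors' deposited list of 236 probe sets with higher signal in DD neurons. They were therefore chosen by the same difference, on the same arrays, that is described here. Their direction was fixed by that choice, so the values are a description and carry no test.

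Expression was measured on Affymetrix arrays in 4 samples of DD neurons and 3 samples of all cells. The DD samples came from the strain CZ8332, which carries juIs223 with the reporters pttr-39::mcherry and pttx-3::GFP, driven by the promoters of ttr-39 and ttx-3. The cells were isolated by fluorescence-activated sorting, for mCherry according to the series design, although a label of these samples names GFP. The all-cell samples came from the wild-type strain N2 and include RNA of every tissue, DD neurons among them. Animals of both groups were L1 larvae, hatched overnight in M9 buffer at 20 °C without food and arrested in growth. In both groups 5 to 10 ng of total RNA was amplified before labelling. Separate cultures are not stated for the samples within a group, and the spread between arrays may therefore be technical only. Strain and reporter changed together with cell type and cannot be told apart from it. For the N2 group, the labels neither describe nor exclude a step of cell dissociation or sorting. Any difference in such handling could not be told apart from cell type either.

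At a synapse, vesicles that have fused with the plasma membrane are taken back by endocytosis. Adaptor proteins gather vesicle proteins and lipids under a clathrin coat, dynamin cuts the bud from the membrane, and synaptojanin changes the membrane lipid so that the coat comes off. DD neurons release GABA onto body muscle to relax it, and worms that lack unc-11, unc-26 or unc-41 move poorly. Values below are log2 levels made with RMA, which corrects the background, normalizes between arrays and combines the probes of a probe set. A difference of 1 on this scale is a factor of 2.

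Markers of D-type motor neurons were looked up for the sorted cells. Genes could be named only where the authors had listed them as higher in DD neurons, so a marker that is not higher could not appear, and these values are no independent check of cell identity. Of 12 listed markers 7 could be named and 5 could not, and their log2 differences between DD neurons and all cells were 1.51 for alr-1, a homeobox gene, and 2.51 to 3.48 for the other 6. Arrays correlated at 0.957 to 0.974 within DD neurons, 0.966 to 0.974 within all cells and 0.936 to 0.971 between groups, across probe sets that are not independent replicates. The median difference over all 22548 tested probe sets was 0.06, while 77 array control probe sets, left out of the test, differed by 0.357 on average. No detection call was given in the sources used here, so a level near the array medians, 5.21 to 5.38, may not be above background.

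The first step of retrieval is represented by the adaptor genes unc-11, unc-41 and ehs-1. The gene unc-11 encodes the worm member of the AP180 family, a clathrin adaptor that recovers the vesicle protein synaptobrevin. Its level (probe set 176648_at) was 6.74, 6.10, 6.30 and 6.99 in DD replicates 1 to 4, and 4.81, 5.15 and 5.79 in all-cell replicates 1 to 3. The groups did not overlap, with 0.31 between the lowest DD array and the highest all-cell array. The means were 6.53 ± 0.40 (SD, n = 4) and 5.25 ± 0.50 (SD, n = 3), and the difference was 1.28 ± 0.30 (SE), or 2.43-fold. The all-cell mean was lower than the median of each all-cell array (5.33 to 5.38), so this fold is not exact.

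The stonin gene unc-41, whose product helps to recover synaptotagmin in worm neurons, read 7.88, 8.22, 7.69 and 8.10 in DD replicates 1 to 4 and 6.79, 6.19 and 7.22 in all-cell replicates 1 to 3. All-cell replicate 2 was the lowest array, and the 2 groups were 0.46 apart at their nearest. The means of 7.97 ± 0.24 (SD, n = 4) and 6.74 ± 0.52 (SD, n = 3) differed by 1.24 ± 0.26 (SE), or 2.36-fold. The gene ehs-1 encodes the worm Eps15, a scaffold of the endocytic coat. It read 9.86, 9.42, 9.09 and 9.42 in DD replicates 1 to 4 and 8.10, 8.34 and 8.81 in all-cell replicates 1 to 3. Here all-cell replicate 3 came within 0.28 of DD replicate 3, the lowest of the DD arrays. The difference was 1.03 ± 0.24 (SE), or 2.05-fold, from means of 9.45 ± 0.32 (SD, n = 4) and 8.41 ± 0.36 (SD, n = 3).

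**Figure D1:**
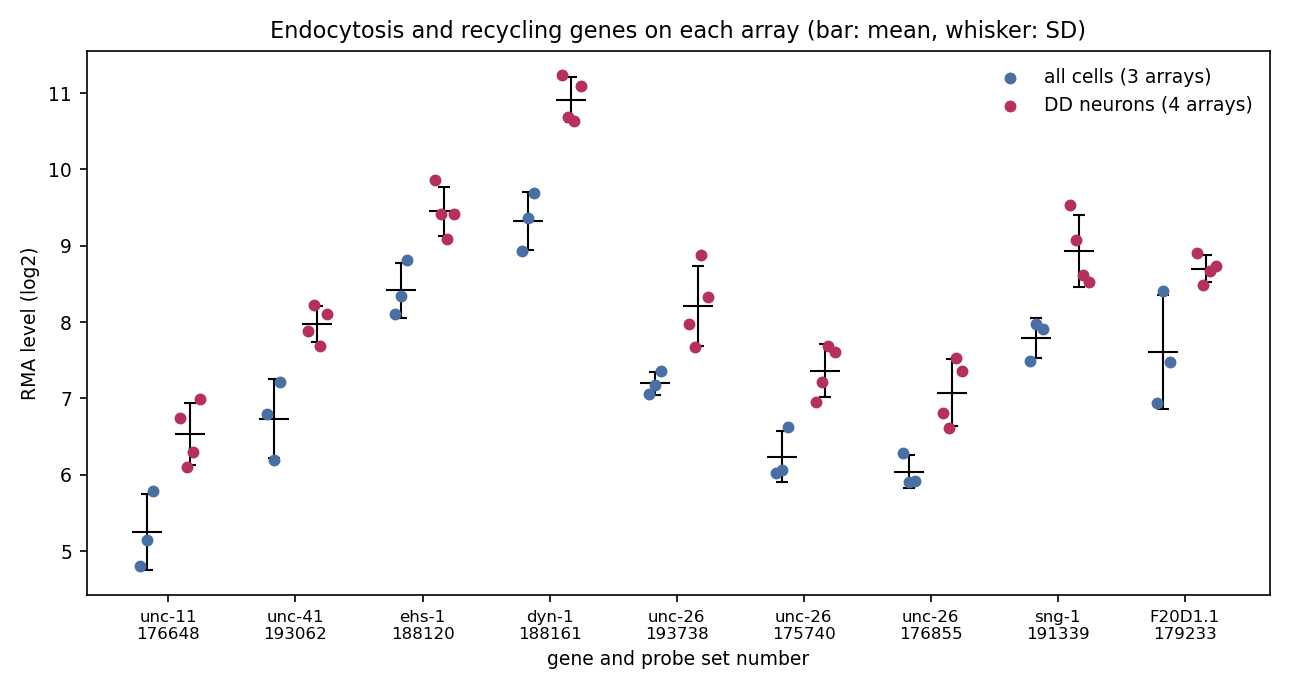
RMA levels (log2, vertical axis) of the 9 probe sets of the 7 genes, with a point for each array (4 of DD neurons, 3 of all cells), a bar at the group mean and whiskers of 1 SD. In every probe set the DD points lie above the all-cell points, most widely apart for dyn-1 (0.95 between the nearest arrays) and almost touching for F20D1.1 (0.06). The groups were separated in this way in 6.98% of all tested probe sets and in 222 of the 236 on the authors' list, from which these come.

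The largest difference among the 7 genes belonged to dyn-1, which encodes dynamin, the GTPase that severs the neck of the endocytic bud. Its level (probe set 188161_s_at) was 11.23, 10.69, 10.64 and 11.09 in DD replicates 1 to 4, and 8.93, 9.36 and 9.69 in all-cell replicates 1 to 3. The nearest arrays of the 2 groups stood 0.95 apart, the widest gap of the 9 probe sets. The means were 10.91 ± 0.29 (SD, n = 4) and 9.32 ± 0.38 (SD, n = 3), a difference of 1.59 ± 0.24 (SE) or 3.01-fold. With dyn-1 included, 67 of the 22548 tested probe sets, 0.297%, had a difference as large. The gene was listed by this same difference, so its rank carries no test.

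Synaptojanin, the lipid phosphatase that releases the coat, is encoded by unc-26, for which the authors' list names 3 probe sets. The brightest of them (193738_s_at) read 7.97, 7.67, 8.88 and 8.33 in DD replicates 1 to 4 and 7.06, 7.17 and 7.36 in all-cell replicates 1 to 3. The probe set 175740_s_at gave 6.95, 7.21, 7.68 and 7.61 in the DD arrays and 6.02, 6.06 and 6.62 in the all-cell arrays. The probe set 176855_s_at gave 6.81, 6.61, 7.53 and 7.36 against 6.29, 5.91 and 5.92. All 3 agreed in that DD replicates 3 and 4 were higher than DD replicates 1 and 2. Their differences were 1.02 ± 0.28, 1.13 ± 0.25 and 1.04 ± 0.26 (SE), or 2.02-, 2.18- and 2.05-fold. These listed probe sets thus differed from each other by at most 0.11. They are marked as matching several transcripts, as are those of dyn-1 and unc-41, and they share a gene, so they are not separate observations.

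The proteins of sng-1 and F20D1.1 reside in the vesicle membrane itself. Synaptogyrin, encoded by sng-1, is an abundant membrane protein of synaptic vesicles. Its gene read 9.53, 9.08, 8.61 and 8.52 in DD replicates 1 to 4 and 7.49, 7.97 and 7.91 in all-cell replicates 1 to 3. DD replicate 1 was the highest, and even the lowest DD array stood 0.55 above the highest all-cell array. The difference was 1.15 ± 0.28 (SE), or 2.21-fold, between 8.93 ± 0.47 (SD, n = 4) and 7.79 ± 0.26 (SD, n = 3).

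F20D1.1 (flwr-1) is the worm counterpart of Flower, a vesicle membrane protein described in Drosophila as linking release to endocytosis. It read 8.91, 8.48, 8.67 and 8.73 in DD replicates 1 to 4 and 6.94, 8.41 and 7.47 in all-cell replicates 1 to 3. All-cell replicate 2 thus came within 0.06 of DD replicate 2, and the all-cell arrays spanned 1.47, the widest range of the 9 probe sets in either group. The difference was 1.09 ± 0.32 (SE), or 2.13-fold, between 8.70 ± 0.18 (SD, n = 4) and 7.61 ± 0.74 (SD, n = 3). Without all-cell replicate 1 it was 0.76 and without all-cell replicate 2 it was 1.49, the largest dependence on a single array among these genes.

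Over the 7 genes, taking the brightest probe set of unc-26, the median difference was 1.15, or 2.21-fold. It was 1.25 over the 201 named genes of the authors' list, from which the 7 come, and 0.06 over all tested probe sets. That the 7 genes stood above the latter was fixed by their choice. All 9 probe sets had every DD array above every all-cell array, as did 6.98% of the tested probe sets. By limma, with a Benjamini-Hochberg adjusted p under 0.05 over all tested probe sets, 1 of the 9 was called higher, that of dyn-1, where 0.191% of the tested probe sets were. The call of dyn-1 was lost whichever of the 7 arrays was left out, with differences of 1.39 to 1.77. Over all tested probe sets, the number called higher then fell from 43 to between 6 and 23. Nothing is read from the counts of the 9 probe sets, since the same contrast chose the genes. The list itself holds probe sets of at least 2-fold, which 1.55% of the tested probe sets reached. Just inside this limit were unc-26 at 1.02 and ehs-1 at 1.03, and both the lowest difference on the list and the highest difference under the limit round to 1.00. A further 113 probe sets of at least 2-fold, up to 1.76, were not on the list and are unnamed here.

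The arrays did not rank the 7 genes alike. Relative to each gene's own mean over the 7 arrays, the average of the 7 genes was 0.72, 0.36, 0.40 and 0.58 in DD replicates 1 to 4 and -0.999, -0.65 and -0.41 in all-cell replicates 1 to 3. DD replicate 1 was the highest DD array for 4 genes, ehs-1, dyn-1, sng-1 and F20D1.1. DD replicate 2 was highest for unc-41, DD replicate 3 for unc-26 and DD replicate 4 for unc-11. Among the all-cell arrays, replicate 1 was lowest for 6 of the 7 genes, the exception being unc-41, and replicate 3 was highest for 5. The medians of the tested probe sets on the same scale lay between -0.05 and 0.04, as normalization between arrays sets them close to each other. DD replicate 1 also had the highest mean of the array controls, 6.02 against 5.71 to 5.88 in the other DD arrays, and the highest lower quartile of probe set levels, 3.84 against 3.61 to 3.68. The part of these measures in the steps between arrays was not tested. The pooled SD within groups was 0.33 to 0.49 for the 9 probe sets, where the median of all tested probe sets was 0.32.

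**Figure D2:**
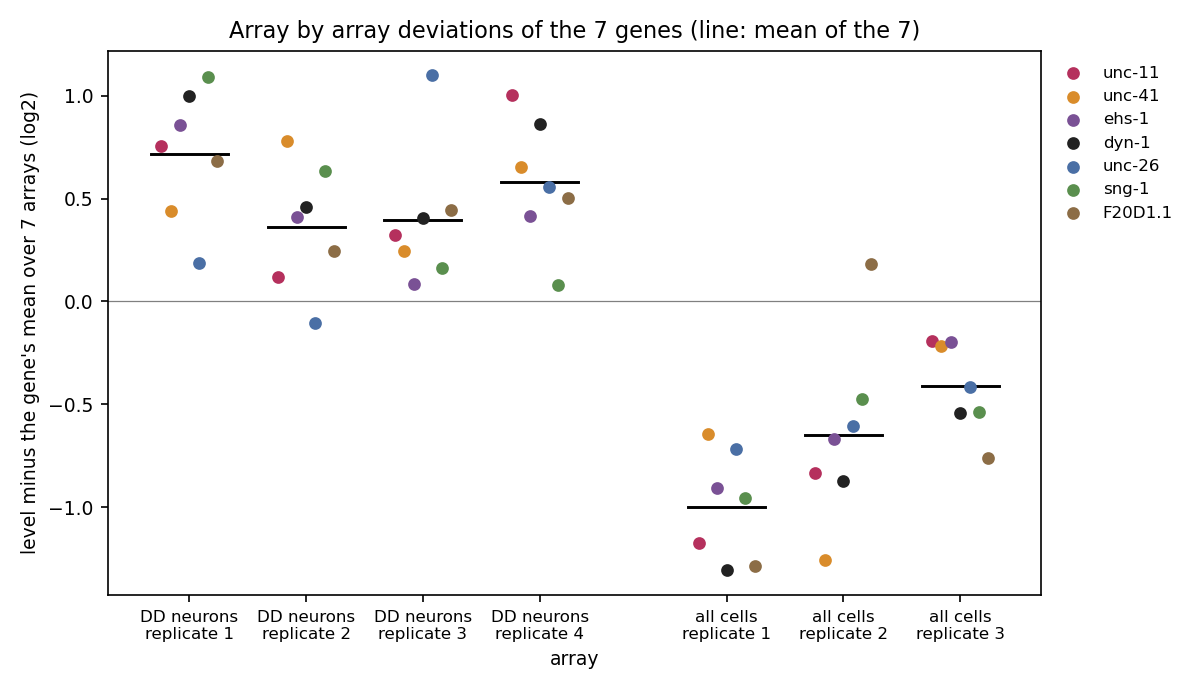
Level of each gene minus its own mean over the 7 arrays (log2, vertical axis) on each array, with a coloured point per gene and a black line at the mean of the 7 genes. The lines lie at 0.36 to 0.72 in the DD arrays and at -0.999 to -0.41 in the all-cell arrays, and unc-26 in DD replicate 2 (-0.11) and F20D1.1 in all-cell replicate 2 (0.18) lie on the other side of 0 from the rest of their group.

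Partners of these proteins were looked for in a list of 24 other endocytosis and recycling genes, of which 4 could be named. Of these, 3 encode subunits of AP2, the adaptor complex that joins clathrin to the plasma membrane, and itsn-1 encodes intersectin, a scaffold that binds Eps15. The gene itsn-1 read 8.03, 7.95, 8.04 and 8.61 in DD replicates 1 to 4 and 7.23, 6.66 and 6.91 in all-cell replicates 1 to 3, a difference of 1.22 ± 0.22 (SE). DD replicate 4 stood apart from the other DD arrays, and without it the difference was 1.08. The alpha subunit gene apa-2 read 9.74, 9.98, 9.63 and 9.93 against 8.91, 8.35 and 8.96, a difference of 1.08 ± 0.20 (SE), with 0.67 between the nearest arrays of the groups.

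The beta subunit gene apb-1, whose product also serves in AP1, read 8.38, 8.89, 9.15 and 9.00 in DD replicates 1 to 4 against 7.58, 8.06 and 7.86 in all-cell replicates 1 to 3, a difference of 1.02 ± 0.23 (SE). The mu subunit gene dpy-23 read 9.59, 8.80, 8.39 and 9.44 against 7.82, 8.26 and 7.84, a difference of 1.08 ± 0.31 (SE). Its groups came within 0.13 of each other, and its DD arrays had the widest spread of the 4 genes. None of the 4 was called by limma, with 1369 probe sets higher at an unadjusted p under 0.05 and 0.191% of all tested probe sets called higher after adjustment. All 4 had every DD array above every all-cell array, as did 6.98% of the tested probe sets and 222 of the 236 on the authors' list, from which these genes too come, so nothing is read from this. The other 20 genes of the list, among them the clathrin heavy chain gene chc-1 and the endophilin gene unc-57, have no named probe set there and were not analysed here.

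Genes that act before endocytosis, in vesicle loading and release, are given beside the members for comparison of their values. On a list of 16 genes of the release machinery 8 could be named, and 7 of them had log2 differences of 1.00 to 1.39, a range that overlaps the 1.02 to 1.59 of the endocytosis genes. They ran from unc-64, the syntaxin gene, at 1.00 ± 0.19 (SE) to nsf-1, whose product takes used SNARE complexes apart, at 1.39 ± 0.19 (SE). The eighth, unc-10, which encodes the active zone protein RIM, stood far from both groups of genes at 6.40 ± 0.24 (SE). All 8 come from the authors' list of higher probe sets. Limma called 3 of them higher, where 0.191% of all tested probe sets were, and nothing is read from that count. Of the 3, nsf-1 and sad-1 lost the call whichever array was left out. The proton pump subunit gene unc-32, which serves in filling vesicles, had a difference of 1.05 ± 0.31 (SE). The transporter gene unc-47 and its sorting factor unc-46, which belong to GABA vesicles, had 2.53 ± 0.23 and 2.92 ± 0.27 (SE), above every endocytosis gene. Both are also among the D-type markers given above. The all-cell means of unc-10 and unc-47, 5.10 and 4.67, were under the array medians, which leaves their differences inexact. Neurons other than DD neurons contribute to the all-cell RNA, and in bulk RNA fewer cells of a type and less RNA per cell cannot be told apart.

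**Figure D3:**
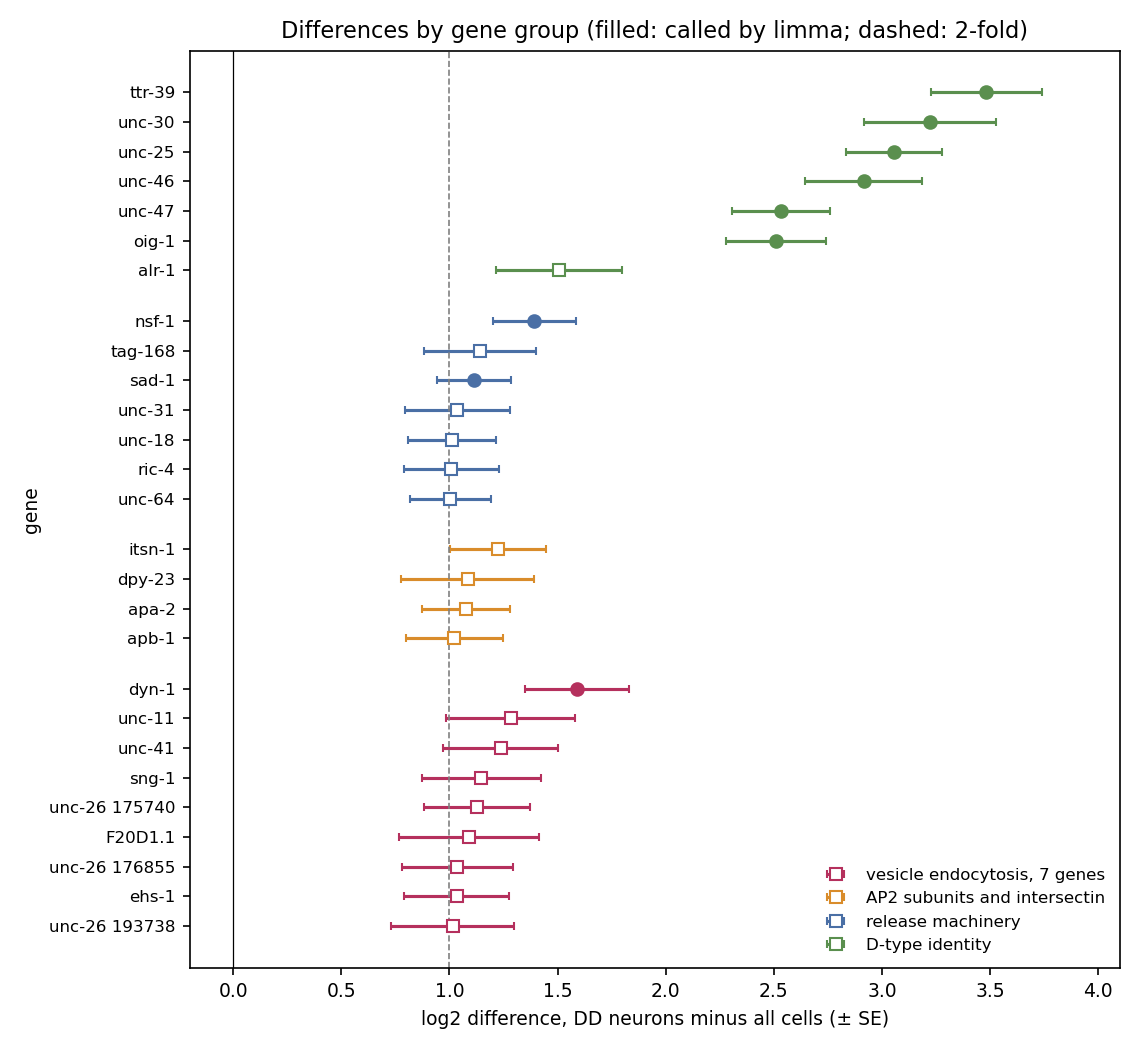
Log2 difference between DD neurons and all cells (horizontal axis, ± SE) for the 9 probe sets of the 7 genes, the 3 AP2 subunit genes with itsn-1, 7 named release genes and 7 D-type markers; unc-10, at 6.40, is left out. Filled circles were called by limma, open squares were not, and the dashed line marks 2-fold: the endocytosis genes run from 1.02 to 1.59 and 6 of the D-type markers from 2.51 to 3.48.

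The array profile of the 7 genes was set against that of each of the 194 other named genes by the root mean square difference over the 7 arrays, after each gene's own mean was subtracted. The most alike was sad-1, a presynaptic kinase gene, at 0.147 (log2). Next came aldo-1, a fructose-bisphosphate aldolase gene, at 0.177, mpz-1, which encodes a protein with several PDZ domains, at 0.180, hum-2, an unconventional myosin gene, at 0.187, and arrd-25, an arrestin-domain gene, at 0.195. The median of the 194 genes was 0.463. Among the 7 genes themselves, ehs-1 was nearest to their mean profile at 0.169 and unc-26 farthest at 0.392, so these 5 genes lay nearer to it than 6 of the 7 members did, although each member is part of that mean. Profiles over 7 arrays are dominated by the difference between the groups, on which all of the genes were chosen.

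Other measures moved with the same groups. Of 15 listed heat shock genes 10 could be named, again only from the authors' list, so their direction was fixed by that choice. Their differences were 1.45 to 4.76, and limma called 2 of the 10 higher, where 0.191% of all tested probe sets were. Their mean level was 9.74 to 10.8 in the DD arrays and 6.21 to 8.05 in the all-cell arrays. Of 63 listed markers of 9 other cell types 4 could be named: ttn-1 of muscle (1.18), acdh-1 of intestine (1.86), ptr-24 of epidermis (1.03) and pgl-1 of the germ line (1.07). Limma called 0 of these 4, where 0.191% of all tested probe sets were called higher. The groups overlapped for acdh-1 and pgl-1, and 6.98% of the tested probe sets had every DD array above every all-cell array. These markers too could be named only where listed as higher. Nothing is therefore read from these counts or from the markers without a name. No marker of cholinergic neurons or of AIY, the interneuron in which the ttx-3 promoter is active, could be named. The array controls averaged 5.71 to 6.02 in the DD arrays and 5.39 to 5.56 in the all-cell arrays. When each array was centred on them, the median difference of all tested probe sets moved from 0.06 to -0.30, and the 9 probe sets kept positive differences of 0.66 to 1.23, of which that of dyn-1 was above 2-fold. The part of these measures in the differences of the endocytosis genes was not tested.

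**Figure D4:**
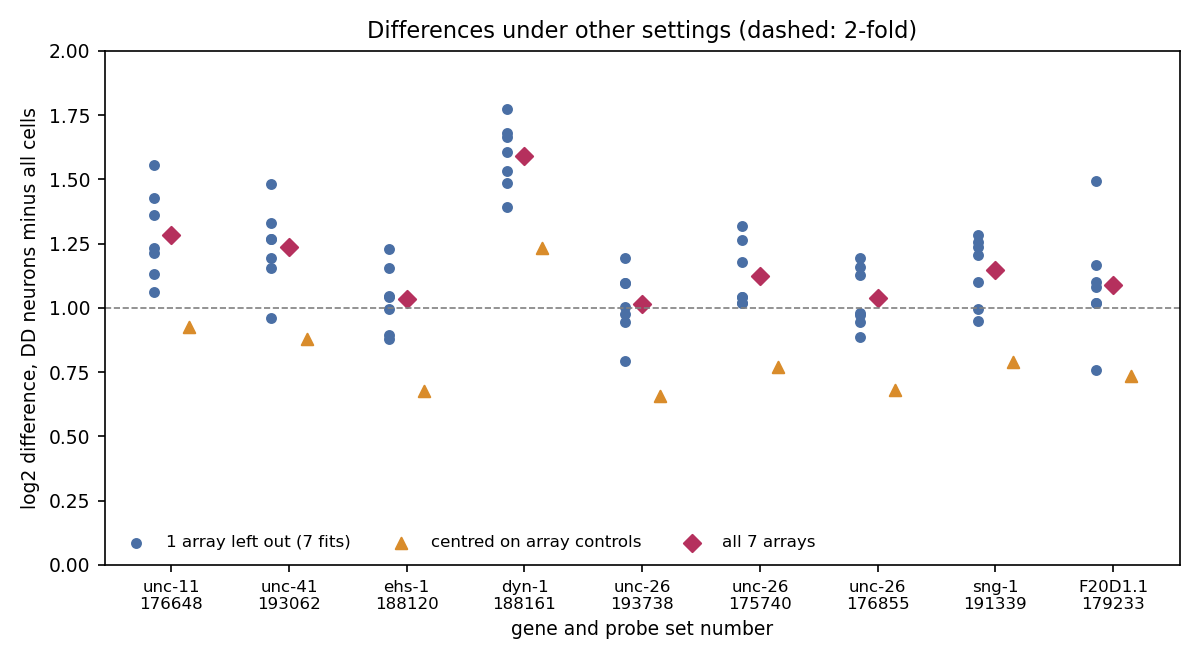
Log2 difference between DD neurons and all cells (vertical axis) of the 9 probe sets over all 7 arrays (diamonds), with each array left out in turn (dots) and after centring on the array controls (triangles); the dashed line marks 2-fold. Every value is above 0, dyn-1 stays above the line in all of them, and the widest spread with 1 array left out is that of F20D1.1, from 0.76 to 1.49. As the groups do not overlap, leaving out 1 array could not reverse a sign.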

How the data were processed

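Per the submitters' processing notes, RMA produced the deposited log2 values, with 1 array per sample. Its software, its version and how probe sets were defined were not stated in the sources used here. Values cover 22625 probe sets. Genes were named through the authors' deposited list of 236 probe sets, which names 222 of them for 201 genes, and none of that table's other values was used. Of these genes 198 matched RefSeq assembly WBcel235 by sequence name.

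The members and gene lists were chosen with earlier results of these data known. Differences were fitted with limma 3.58.1 (R 4.3.3) to 7 arrays and no covariates, over probe sets other than 77 array controls, with 5 residual and 3.13 prior degrees of freedom. The number of arrays limits the precision. The fit was tested on simulated data, where it called 78.4% of 4-fold changes but only 25.6% of 2-fold changes. Genes with several probe sets were represented by one not marked as matching several transcripts, then by the brightest. Named genes were the members, nameable list genes and the 5 most similar profiles; unc-57 and chc-1 were named to say what was not analysed. Alternatives left out each array, blocked on replicate number, rescaled arrays 3 ways, dropped dim probe sets, kept the controls, weighted arrays, changed the variance model or averaged probe sets. Other tables used Python 3.11.15 and pandas 2.3.3. Promoter and protein sequences were not used here.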

Additional observations from a re-analysis of the deposited data

Results flagged for a closer look

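Among 43 named probe sets, the 4 DD arrays were searched for a single array far from the other 3, which chance gives in about 1 of 20 groups, and 2 had one. For itsn-1, the level in DD replicate 4 was 8.61 (log2), and the remaining DD arrays lay between 7.95 and 8.04. For the GABA synthesis gene unc-25, it was 10.84 in DD replicate 2 and 11.39 to 11.46 in the rest. None of the 9 probe sets of the 7 endocytosis genes had such an array.

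The 77 array controls, which were outside the main comparison, had a mean level 0.357 higher (log2) in DD neurons than in all cells, with 5.85 against 5.49 and no overlap between the arrays of the groups. Control probe sets include worm genes, and whether the shift is technical was not tested.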

How the results depend on the processing

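All 9 probe sets of the endocytosis genes kept a positive difference under all 15 alternatives fitted to them, from 0.66 to 1.77. Of these 135 values 132 moved by less than 1 SD. The other 3, for dyn-1 (1.23), ehs-1 (0.68) and unc-26 (0.77), came with array control centring. The sign carries no test: the genes were chosen by it, and their groups do not overlap, so leaving out an array could not reverse it. Changing the variance model, dropping dim probe sets or keeping the controls left each of these differences as it was. Blocking on replicate number gave the differences found without DD replicate 4. The median of the 7 genes was 0.79 to 1.26 under all alternatives and 1.15 when all named probe sets of a gene were averaged. The differences of 34 other named probe sets also stayed positive. The call of dyn-1, the 1 call among the 9 probe sets, held in 7 alternatives; it was lost whichever array was left out (0 of 9 called each time) and with the replicate block (0 of 9). Over all probe sets 43 were called higher and 51 lower. With an array left out the counts were 6 to 23 higher and 0 to 39 lower, the lowest of both without DD replicate 1. With the replicate block they were 2 and 0, with 1444 and 2075 at an unadjusted p under 0.05 (limma); same-numbered arrays shared only a number (correlations of their deviations -0.00511, 0.0703 and 0.0864). Without dim probe sets they were 65 and 93, after median centring 47 and 28, after quantile normalization 43 and 33, and after array control centring 40 and 393. The last subtracts the difference of the controls, 0.357, from every probe set.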
